A study of Mus musculus with 8 samples.

Results

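The genes described here are 10 components of the lysosome, 6 of them cathepsins (Ctsb, Ctsd, Ctsk, Ctsl, Ctss and Ctsz), 3 of them genes of lysosomal cholesterol handling (Lipa, Npc1 and Npc2), and Lamp1. They were measured in the liver of male C57BL/6 wild-type mice (C57BL/6J in the Methods). A probe was taken where the gene name given in the array files is a member, which found 13 probes of 9 genes. Lipa is on the array only under its older symbol Lip1, with 2 probes, of which 1 was matched by its RefSeq accession and 1 by that older symbol. The 15 probes stand among 41174 on the array, of which 31063 were detected, and the 10 genes stand among 16562 genes with a name and a detected probe. The control mice (STD, n = 4) received standard chow, and the others (ATH, n = 4) received the atherogenic diet, a high-fat/high-cholesterol chow that also contains cholic acid, over a period of 4 weeks. The mice were 14 to 17 weeks old at the start, no transgene or drug was used, and 1 array was hybridized with whole liver RNA of 1 mouse. The diet is one of several used to model steatohepatitis in mice, and a single time point was measured.

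Lysosomes are the acidic organelles in which cells digest proteins, lipids and carbohydrates taken up from outside or delivered by autophagy. Cathepsins are their proteases, made as inactive precursors and activated inside the organelle. Cholesterol esters that arrive with lipoproteins are split by lysosomal acid lipase (Lipa), and the free cholesterol is handed by NPC2 to NPC1 in the membrane, from where it leaves for the rest of the cell. Hepatocytes and the macrophages of the liver both hold many lysosomes, and cathepsin S is best known from macrophages and other antigen-presenting cells.

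All values below are log2 processed signals with the 75th percentile of each array subtracted, so that 0 is the level of that percentile and 1 unit is a doubling. Signals of different probes are not compared with each other, since each probe binds with its own strength. Before this scaling the percentile was 0.45 log2 units higher on ATH than on STD arrays, while added control transcripts were 0.14 higher. After scaling, the median probe differed by -0.15 between diets, and differences of the members are to be read against that value. Pairs of arrays within a diet correlated at 0.9858 to 0.9908 on STD and at 0.9711 to 0.9897 on ATH, where the array of replicate 2 (ATH2) was the least like the others. The 4 STD arrays were on 1 slide and the 4 ATH arrays on another, and the effects of diet and slide cannot be told apart in any comparison below. The defining hepatocyte and macrophage markers were present in every liver, and they are described with the results they touch.

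Ctss, which encodes cathepsin S, was higher in the liver of mice on the atherogenic diet by 2.22 on the log2 scale, or 4.67-fold, and it was the only member that passed the test. Its probe was also the only one of 14 member probes to pass, beside 7.99% of all probes. By limma with Benjamini-Hochberg adjustment over all detected probes, 1 of the 10 genes was called at a false discovery rate of 5%, beside 9.35% of all genes. At the 1% rate named in the Methods 0 of 10 were called, beside 0.64% of all genes. An unadjusted limma p under 0.05 was found at the brightest probe for 1 of 10 genes. Among the member probes that are not the brightest, the dimmer Ctsb probe also had such a value (limma, unadjusted p = 0.00806). Of the 31063 detected probes 8818 did. For the other 9 genes, fold changes ran from 0.80 to 1.33, and in 6 of the 10 genes the ATH mean was above the STD mean. The median log2 difference was 0.17 over the 10 genes and 0.14 without Ctss, beside -0.14 over all genes. The spread between mice was larger on ATH than on STD in 7 of 10 members, and in 68.6% of all genes.

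**Figure D1:**
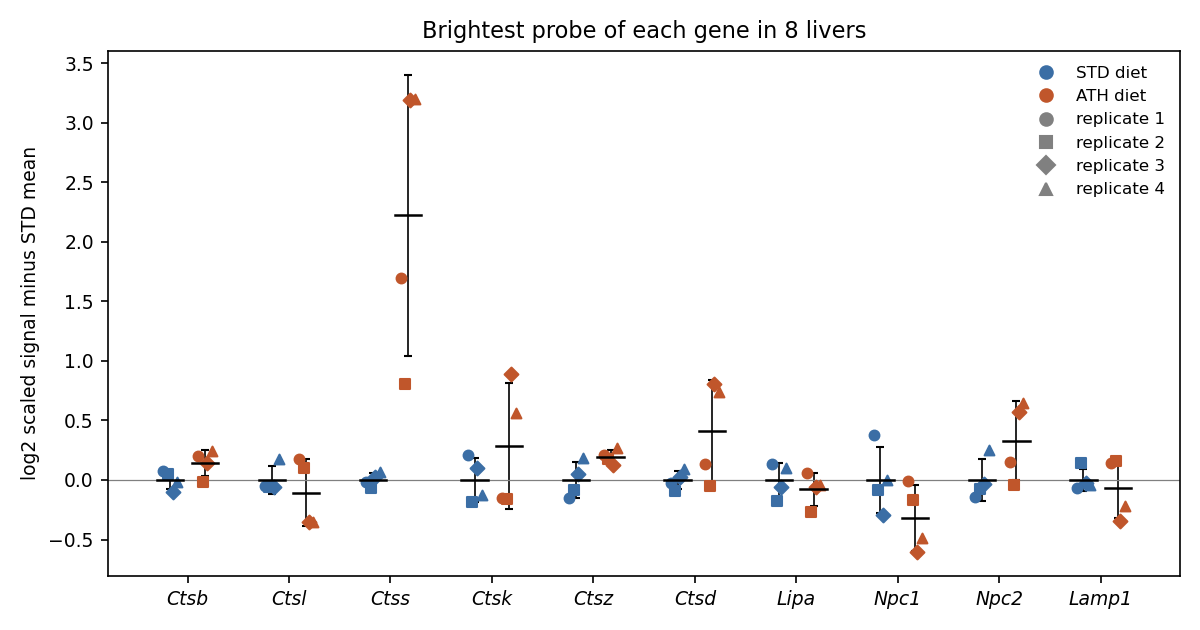
Signal of the brightest probe of each of the 10 genes in each liver, as the log2 scaled signal minus the mean of the 4 STD livers; symbols mark the replicate number, bars the mean and SD of 4 livers. Ctss is higher in all 4 ATH livers (by 2.22 on average), while the diets overlap for the other 9 genes.

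Cathepsin S is a cysteine protease that stays active at neutral pH and trims the invariant chain of MHC class II molecules. Its only probe (A_51_P423981, chr3:95430189-95430248, plus strand, mouse build mm7 of the array design) gave 3.56, 3.51, 3.61 and 3.64 in the STD livers. It gave 5.28, 4.38, 6.77 and 6.78 in the ATH livers. The STD livers lay close together (3.58 ± 0.06, SD, n = 4) and every ATH liver was above them, but the ATH livers were spread widely (5.80 ± 1.18), with ATH3 and ATH4 high and ATH2 nearest to the controls. The difference of 2.22 had a standard error of 0.49 and a 95% interval of 1.10 to 3.34, or 2.15- to 10.1-fold (limma, adjusted p = 0.0353). A larger positive difference was measured for 0.486% of all detected probes. Non-overlap in the upward direction was seen in 7.59% of all genes. The call was lost when arrays with the same slide position were treated as pairs (adjusted p = 0.0512), with the unequal-variance test of the Methods (adjusted p = 0.188) and without the detection filter (adjusted p = 0.0586). Without STD1, STD2, STD3, STD4, ATH3 or ATH4 the adjusted p was 0.0881, 0.0694, 0.0848, 0.0805, 0.0795 or 0.0823, whereas without ATH2 it was 0.00469, and the difference stayed between 1.90 and 2.70.

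The promoters of the members were compared because many lysosomal genes carry the palindrome CACGTG, the core of the site read by TFEB and its relatives, close to their start. The 250 bases before the start were taken from RefSeq (build GRCm38.p6), which gave a promoter for 8 of the 10 genes, all but Ctsb and Npc1. CACGTG was present in 3 of these 8, with 4 copies before Lamp1, 2 before Ctsd and 1 before Ctsl. In comparison, 6.02% of the 32851 promoters in the table hold it. The longer palindrome with GT before and AC after this core, found in 0.24% of all promoters, was in none of the 8. Both motifs read the same on either strand, and every copy of the longer one contains the shorter. The promoter of Ctss had no CACGTG, but had 1 copy of GAAA repeated after any pair of bases (searched on both strands), a spacing found in sites of interferon regulatory factors, which begins 21 bases before the start. This second motif was chosen after the sequence was seen, is held by 2.98% of all promoters, and also lies once before Lamp1. The promoter of the gene that changed with diet and those with the most CACGTG copies, in which no diet difference passed the test, are printed 5′ to 3′ on the strand of the gene. Capitals mark the GAAA repeat in Ctss (chr3:95526536-95526785, plus strand) and CACGTG in Lamp1 (chr8:13158911-13159160, plus strand) and Ctsd (chr7:142387828-142388077, minus strand).
Ctss: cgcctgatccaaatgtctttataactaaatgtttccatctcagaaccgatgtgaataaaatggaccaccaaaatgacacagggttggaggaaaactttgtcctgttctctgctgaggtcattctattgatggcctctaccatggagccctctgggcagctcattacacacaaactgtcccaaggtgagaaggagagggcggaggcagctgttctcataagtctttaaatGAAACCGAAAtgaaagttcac
Lamp1: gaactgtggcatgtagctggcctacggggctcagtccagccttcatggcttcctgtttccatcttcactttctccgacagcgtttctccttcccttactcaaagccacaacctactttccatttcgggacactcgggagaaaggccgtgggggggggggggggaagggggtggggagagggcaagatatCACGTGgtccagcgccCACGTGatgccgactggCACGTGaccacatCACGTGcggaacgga
Ctsd: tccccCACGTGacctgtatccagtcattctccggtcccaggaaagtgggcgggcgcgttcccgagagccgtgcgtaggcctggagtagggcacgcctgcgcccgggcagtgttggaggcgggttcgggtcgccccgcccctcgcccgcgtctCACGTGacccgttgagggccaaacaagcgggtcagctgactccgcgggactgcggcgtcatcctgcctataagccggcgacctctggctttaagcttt
A match in these letters is a description of the sequence, and binding at it was not measured in this study.

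Ctsb encodes cathepsin B, an abundant cysteine protease with both endopeptidase and dipeptidase activity. Its brighter probe (A_51_P465148, chr14:58006948-58007007, mm7) gave 6.44, 6.42, 6.27 and 6.36 in the STD livers and 6.57, 6.36, 6.51 and 6.61 in the ATH livers. The diets overlapped, and the difference of 0.14 ± 0.12 (SE) did not pass the test (limma, adjusted p = 0.436). It was 0.59 and called without scaling (adjusted p = 0.0279), and 0.45 and not called with spike-in scaling or quantile normalization. Its dimmer probe (A_52_P433889, chr14:58009173-58009232, mm7) gave -0.78, -0.82, -0.92 and -0.96 on STD and -0.45, -0.61, -0.30 and -0.50 on ATH. Here all ATH livers were above all STD livers, by 0.40 ± 0.12 or 1.32-fold, with an adjusted p of 0.0689 by limma, and it was called without scaling (0.85, adjusted p = 0.0126), with spike-in scaling (0.71, 0.0317) and with normexp background correction (0.32, 0.0391). This probe and that of Ctss were the 2 of 14 member probes without overlap between diets, beside 19.9% of all probes.

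Ctsl encodes cathepsin L, a cysteine endopeptidase of nearly all cells. Its probe (A_51_P253547, chr13:62192273-62192332, mm7) gave 7.77, 7.76, 7.76 and 7.99 on STD and 7.99, 7.92, 7.47 and 7.47 on ATH. ATH1 and ATH2 lay within the range of the controls, and ATH3 and ATH4 were the lowest of all 8 livers. The difference was -0.11 ± 0.16 (limma, adjusted p = 0.694), and it was 0.34 without scaling, 0.20 with spike-in scaling and 0.25 after quantile normalization.

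Ctsk encodes cathepsin K, the collagenase of osteoclasts, and is the next protein-coding gene to Ctss on chromosome 3, with 49.3 kb between their probes. Its signal was low but above background on all 8 arrays, at -3.24, -3.64, -3.35 and -3.58 on STD and -3.60, -3.62, -2.57 and -2.89 on ATH. ATH3 and ATH4 were above the STD livers and ATH1 and ATH2 within their range. The difference of 0.29 ± 0.25 did not pass the test (limma, adjusted p = 0.477), and was 0.73 without scaling, 0.59 with spike-in scaling and 0.0019 with normexp background correction. The difference of Ctss exceeded that of its neighbor Ctsk by 1.94. The Ctsk probe (A_51_P448236, mm7 chr3:95380674-95380918) is printed because its 60 bases are spread over 245 bases of the genome, the widest span of the member probes. The dimmer Ctsd probe is spread over 154 bases, and exon positions were not analysed for either.
Ctsk probe: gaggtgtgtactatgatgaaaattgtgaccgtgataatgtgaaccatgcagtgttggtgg

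Ctsz encodes cathepsin Z, a carboxypeptidase. Its brighter probe (A_51_P256202, chr2:174172121-174172180, mm7) gave 5.82, 5.89, 6.02 and 6.15 on STD and 6.18, 6.15, 6.10 and 6.24 on ATH. The lowest ATH liver was below the highest STD liver, and the difference was 0.20 ± 0.12 (limma, adjusted p = 0.309). The other probe gave nearly the same difference, 0.21 ± 0.14 (adjusted p = 0.340). The brighter probe was called without scaling (0.64, adjusted p = 0.0153) and with spike-in scaling (0.50, adjusted p = 0.0498).

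Ctsd encodes cathepsin D, the main aspartic protease of the lysosome. Its brighter probe (A_51_P384629, chr7:138803337-138803396, mm7) gave 5.31, 5.25, 5.36 and 5.42 on STD and 5.47, 5.29, 6.14 and 6.08 on ATH. ATH3 and ATH4 were above every STD liver by a wide margin, ATH1 was just above them and ATH2 was within their range. The difference of 0.41, or 1.33-fold, was the largest of any member but Ctss, with a 95% interval of -0.06 to 0.87 (limma, adjusted p = 0.224). It was 0.85 and called without scaling (adjusted p = 0.0454), and 0.72 and not called with spike-in scaling (adjusted p = 0.108). At the dimmer probe (A_52_P35960, chr7:138804003-138804156, mm7) it was 0.24 ± 0.29 (adjusted p = 0.616), again with ATH3 and ATH4 highest, at 3.57 and 3.47.

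Among the genes of cholesterol release, Lipa encodes the acid lipase that frees cholesterol from its esters. Its probe for the RefSeq transcript (A_51_P459661, chr19:34194531-34194590, mm7) gave 2.95, 2.64, 2.76 and 2.91 on STD and 2.87, 2.54, 2.76 and 2.77 on ATH. The diets overlapped almost fully, with a difference of -0.08 ± 0.13 and a 95% interval of -0.37 to 0.21 (limma, adjusted p = 0.721). The value was 0.37 without scaling, 0.23 with spike-in scaling and 0.06 after quantile normalization. A second probe (A_52_P553471) differed by 0.32 ± 0.23 (adjusted p = 0.384).

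Npc2 encodes the soluble carrier that takes up cholesterol inside the lysosome. Its probe (A_51_P347961, chr12:82757293-82757352, mm7) gave 2.94, 3.01, 3.05 and 3.33 on STD and 3.23, 3.04, 3.66 and 3.73 on ATH. ATH3 and ATH4 were above all STD livers, and the other two lay among them. The difference was 0.33 ± 0.18, with a 95% interval of -0.09 to 0.75 (limma, adjusted p = 0.267). It was 0.78 and called without scaling (adjusted p = 0.0425), and 0.64 and not called with spike-in scaling (adjusted p = 0.110).

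Npc1 encodes the membrane protein that receives cholesterol from NPC2. Its detected probe (A_51_P349341) gave 1.497, 1.04, 0.83 and 1.13 on STD and 1.11, 0.95, 0.52 and 0.63 on ATH. The diets overlapped, with ATH3 and ATH4 below all STD livers. The difference of -0.32 ± 0.19 was the lowest of the 10 genes, at 0.80-fold (limma, adjusted p = 0.296), and was 0.13 without scaling. The other Npc1 probe was detected on none of the arrays. The signs of the differences of Npc1 and Npc2 were thus opposite, and that pair is tested below.

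Lamp1 encodes a heavily glycosylated protein of the lysosomal membrane that is used as a marker of the organelle. Its probe (A_51_P150648, chr8:13149356-13149415, mm7) gave 6.22, 6.43, 6.26 and 6.24 on STD and 6.43, 6.45, 5.94 and 6.07 on ATH. ATH1 and ATH2 were at the level of the highest STD liver, and ATH3 and ATH4 were below all of them. The difference was -0.07 ± 0.15 (limma, adjusted p = 0.800), and was 0.38 without scaling, 0.24 with spike-in scaling and 0.24 after quantile normalization.

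**Figure D2:**
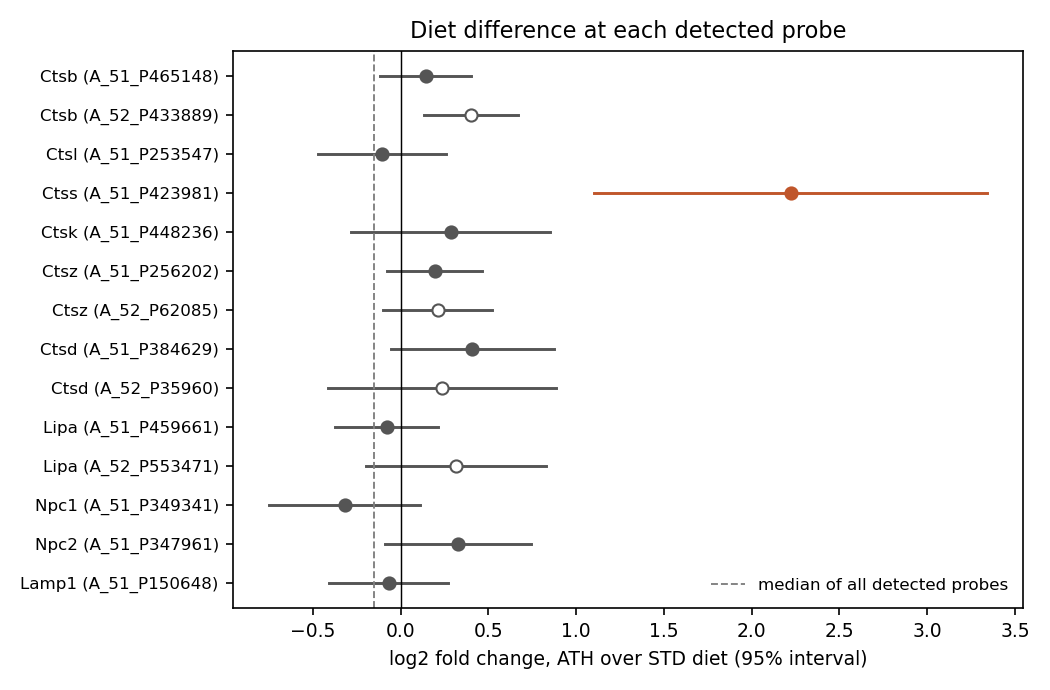
Log2 fold change of ATH over STD diet at each of the 14 detected member probes, with its 95% interval from limma; filled points are the brightest probe of a gene, the colored one passed a false discovery rate of 5%, and the dashed line is the median of all detected probes (-0.15). The interval of Ctss lies between 1.10 and 3.34.

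Since scaling shifts all genes of an array together, the members were also compared with each other within each array, which is free of it. This was done after the values were seen, with an exact two-sided permutation test on each of the 45 pairs of members. The difference of Ctss exceeded those of the 9 other members by 1.82 (Ctsd) to 2.54 (Npc1). In each of these pairs the diets did not overlap, which gave the smallest p that 4 against 4 arrays allow (exact permutation test, p = 0.0286). These 9 pairs share the Ctss values, which did not overlap on their own, so they are not independent of each other or of that result. Of the 36 remaining pairs only Ctsz and Lipa reached this value, with Ctsz ahead by 0.27. None of the 45 pairs passed after Benjamini-Hochberg adjustment, where the lowest exact permutation p was 0.129. With so few arrays 26 pairs would have had to reach the smallest p for any to pass, so the adjusted values say little, and with arrays paired by replicate number the smallest exact p would be 0.125. The difference of Npc1 minus that of Npc2, the pair that hands on cholesterol, was -0.65 (exact permutation test, p = 0.171).

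Markers of liver macrophages moved with Ctss. Of 15 macrophage markers, 7 were called higher and 0 lower at 5%, beside 4.05% and 5.3% of all genes, and their median log2 difference was 1.54. The summed signal of the 15 markers, in multiples of each array's 75th percentile, was 117, 110, 125 and 133 on STD and 379, 211, 753 and 867 on ATH. The 8 livers had the same order in this sum as in Ctss, within each diet as well. The brightest probes, those of Lyz2, Marco, Cd5l and Mpeg1, weigh most in this sum, and single markers could differ from its order. ATH3 was above ATH4 in Adgre1 (4.23 and 3.93) and Cd14 (2.76 and 2.29), and Cx3cr1 differed by -0.30 between diets. In the order ATH1 to ATH4, the summed lymphocyte markers were 1.996, 1.10, 3.81 and 4.34 and the cholangiocyte markers 20.03, 17.4, 54.0 and 92.8. The ATH livers, though not the STD livers, thus had the order of Ctss in these sums too. The cholangiocyte sum was mostly that of Spp1, at 4.19, 3.91, 5.67 and 6.50 on the log2 scale in ATH1 to ATH4. Sox9, the next brightest of these markers, was at 0.22, 0.68, 0.96 and 0.70, which is not that order. Of the defining macrophage markers, Cd68 was higher by 1.92 (limma, adjusted p = 0.0461) and Adgre1, which encodes a surface receptor of macrophages, by 1.54 (adjusted p = 0.0702). With the replicate block 4 of the 7 calls were kept, without that of Cd68 (limma, adjusted p = 0.0551). Of the 7, only Cd5l kept its call whichever single array was left out (limma, highest adjusted p = 0.0343). Of markers known from resident Kupffer cells, Cd5l was higher by 1.69 (limma, adjusted p = 0.00899) and Marco by 3.43 (adjusted p = 0.0353), while Timd4, Vsig4 and Clec4f differed by 0.94, 0.65 and 0.32 (adjusted p = 0.0528, 0.0834 and 0.290). The 13 detected hepatocyte markers had a median difference of -0.22 (0.23 without scaling), with 1 of 13 called lower, and a summed signal of 4590 to 5125 on STD and 3348 to 4565 on ATH. Alb, the brightest of them, differed by -0.42 and was not called (limma, adjusted p = 0.0896). In whole liver, more cells of a type and more RNA per cell cannot be told apart, and the part of these markers in the difference of Ctss was not tested.

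**Figure D3:**
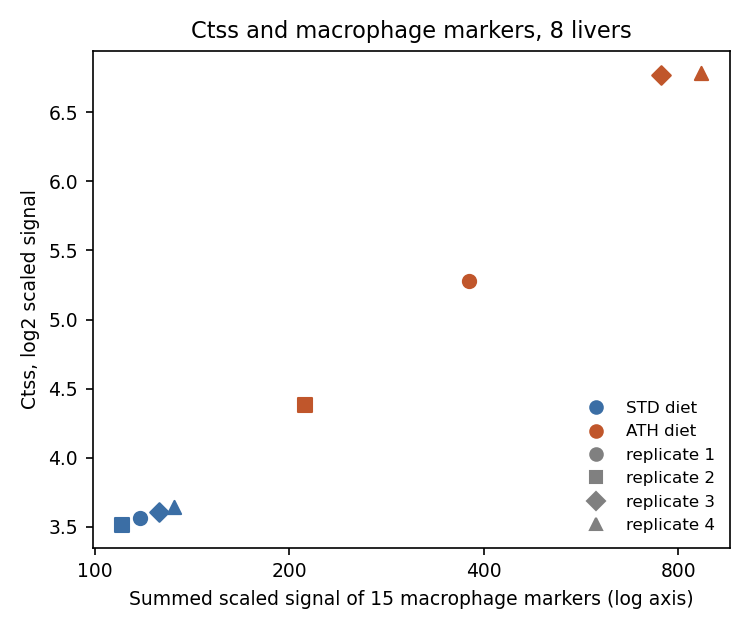
Ctss signal (log2 scaled, vertical axis) against the summed scaled signal of 15 macrophage markers (multiples of the array's 75th percentile, log axis) in the 4 STD and 4 ATH livers. The STD livers lie together at sums of 110 to 133 and the ATH livers spread from 211 to 867, in the same order as Ctss. The brightest markers weigh most in the sum.

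Beyond the markers, the genes most like Ctss over the 8 arrays were Ms4a6b, Plek and Fyb, with Pearson r of 0.9994, 0.9985 and 0.9979 across arrays, as a description with no test. Their differences between diets were 2.56, 2.21 and 1.80. The arrays fall into the 2 diets, and so these correlations follow the diet difference as well as the order of the ATH livers. In each of these genes ATH2 was the lowest and ATH4 the highest of the ATH livers, as in Ctss, by likeness to which they were chosen.

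Other lysosomal and sterol genes were read from 9 lists with 99 detected genes. Of these, 8 were called higher and 4 lower at 5%, beside 4.05% and 5.3% of all genes, and the median difference was 0.01. Without scaling 43 were called higher and 1 lower, and with spike-in scaling 20 and 1. In these settings 23.7% and 9.25% of all probes were called, of which 94.9% and 86.1% were higher on ATH. None of the 8 other cathepsins was called, and neither was any of 5 detected cathepsin inhibitors. Cst7, which encodes cystatin F and was singled out after its values were seen, differed by 3.25 (limma, adjusted p = 0.0879), with -4.79, -4.56, -4.68 and -5.03 on STD and -2.51, -4.68, 0.45 and 0.68 on ATH. The transcription factor Tfeb, a main regulator of lysosomal genes, differed by 0.01 (adjusted p = 0.966).

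Among 30 lysosomal hydrolases, 2 were called. Lgmn, the asparaginyl protease that processes several cathepsins, was higher by 1.09 (limma, adjusted p = 0.0105). Unlike Ctss, Lgmn kept its call without any single array (highest adjusted p = 0.0405). Laptm5, a lysosomal membrane protein of blood cells, was higher by 1.67 (adjusted p = 0.0357), and Tfec, a relative of Tfeb known from macrophages, by 1.39 (adjusted p = 0.0300). The proton pump subunit Atp6v0a1 was lower by 0.65 (fold 0.64, adjusted p = 0.0443) and the nutrient-sensing GTPase Rragd was at 0.69-fold (adjusted p = 0.0478), and neither was called without scaling or with spike-in scaling. With the replicate block, the adjusted p of Laptm5, Tfec and Rragd was 0.0501, 0.0615 and 0.0817. With a single array left out, the highest limma adjusted p was 0.0877 for Laptm5, 0.0781 for Tfec, 0.113 for Atp6v0a1 and 0.123 for Rragd.

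Of 14 genes that move or store sterol outside the lysosome, 4 were called higher and 2 lower. Gramd1b, which carries cholesterol from the plasma membrane to the endoplasmic reticulum, was higher by 3.01 (limma, adjusted p = 0.00101), and the cholesterol exporters Abcg1 and Abca1 by 2.28 and 0.81 (adjusted p = 0.00364 and 0.0138). Soat1, which esterifies cholesterol, was higher by 2.03 (limma, adjusted p = 0.0388, 0.0577 with the replicate block, and at most 0.0918 with a single array left out). Stard4, a soluble sterol carrier, was at 0.25-fold (adjusted p = 0.00364). The median difference of the 14 genes was -0.02, with 8 not called.

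**Figure D4:**
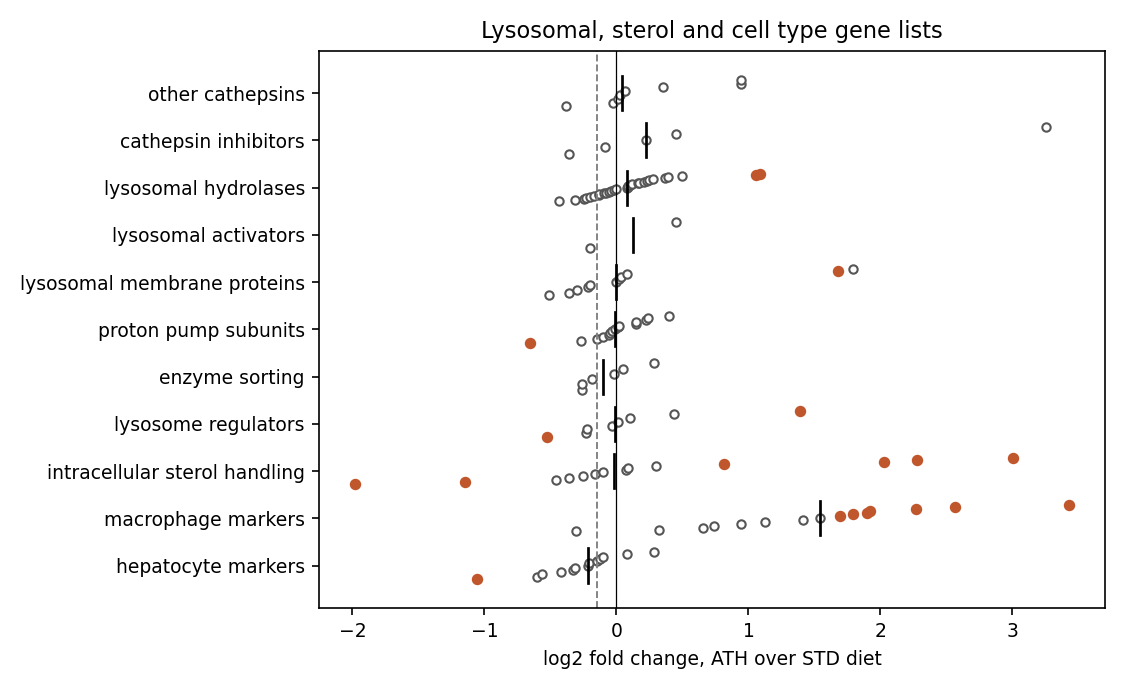
Log2 fold change of ATH over STD diet for each detected gene of the 9 lysosomal and sterol lists and of the macrophage and hepatocyte markers. Filled points passed a false discovery rate of 5%, black bars are list medians and the dashed line is the median of all probes; the macrophage markers have a median of 1.54, and the medians of the 9 lysosomal and sterol lists lie between -0.10 and 0.22.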

How the data were processed

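Cy3-labeled cRNA from whole liver was hybridized to Agilent mouse arrays, with 1 mouse per array. The authors scanned the arrays and ran Feature Extraction version 9.5, and the deposited spot intensity values had background and spatial trend removed, without scaling from array to array. A GeneSpring table of log2 values was deposited as well. It differs from the log2 processed signal by 1 constant for each array and 1 for each probe (within 0.001 for 100% of its detected probes) and served as an alternative.

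Outlier spots were dropped, spots of a probe were averaged, and the 75th percentile over non-control probes was subtracted on the log2 scale. A probe was detected when it was well above background, positive and significant on at least 3 of 4 arrays of a diet; the 14 detected member probes passed on all 8 arrays. A gene was represented by its brightest probe, and other probes are given beside it. Diets were compared with limma 3.58.1 (lmFit with eBayes in R 4.3.3, two-sided) and adjusted by Benjamini-Hochberg over 31063 probes. A call means a false discovery rate of 5%, and 95% intervals are not adjusted. Scaling, background, filter, test and each single array were varied. Exact permutation tests went through all splits of the 8 arrays into 4 and 4, with numpy 2.4.6 in Python 3.11.15. The t quantiles of the 95% intervals came from scipy 1.17.1, and plots used matplotlib 3.10.9. Genes were named by accession, symbol or synonym through RefSeq. In simulated data for the diet comparison, 200 of 31063 probes were given a log2 change of 2, of which limma found 91%. Of 199 calls 17 were false, a share above the 5% aimed at. Each simulated probe had the same spread in both diets, unlike Ctss (SD 0.06 on STD and 1.18 on ATH), so the simulation does not cover such genes.

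The members, gene lists and tests were chosen with earlier results of these data known. The genes named are the 10 members, the listed lysosomal and sterol genes called at 5%, the defining cell type markers and the 3 genes most correlated with each called member; Cst7 and Tfeb were added after their values were seen, and 2 of the called genes are counted but not reported here by name. The other lists of cell types had 1 of 10 stellate cell, 1 of 8 endothelial, 1 of 6 cholangiocyte, 0 of 8 lymphocyte and 0 of 6 neutrophil markers called higher, and none called lower. Equal replicate numbers mark equal positions on both slides. Deviations from the group mean of such pairs of arrays had correlations of 0.1003, 0.2294, 0.1815 and 0.1766, all over 0.1, and replicate number was therefore also used as a block. The share of spots well above background was 72.3% to 77.3% on STD and 72.9% to 77.8% on ATH arrays, and the number of arrays limits the precision. The mm7 positions of probes within exons or UTRs were not analysed here.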

Additional observations from a re-analysis of the deposited data

Results flagged for a closer look

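In the STD livers, the Ctsl probe A_51_P253547 had 1 value far from the others, 7.99 in STD4 beside 7.76 to 7.77 in the other 3 livers. The gap was 0.938 of the range of the group. Of 30 groups of 4 values checked over the member probes, 1 stood out in this way, and chance alone would give 1.5. Without STD4 the log2 difference of Ctsl between diets was -0.05 (limma, adjusted p = 0.889), beside -0.11 with all livers.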

How the results depend on the processing

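Ctss was higher on ATH under all 23 alternatives and kept its call in 13, with differences of 1.90 to 2.70. Over all probes 2483 were called, of which 38.2% were higher on ATH; 1 member gene, 1 member probe and 12 of the listed lysosomal and sterol genes were called. In that order, the 4 counts were 7366, 5, 7 and 44 without scaling (94.9% of calls higher), 1086, 0, 0 and 6 without the detection filter, 22, 0, 0 and 1 with the Methods' test, and 164, 0, 0 and 3 at 1%. With spike-in scaling they were 2872, 2, 3 and 21 (86.1% higher). With normexp background correction 6394 probes were called (18.9% higher), 2 member probes and 19 listed genes. Quantile normalization and median scaling gave 54.3% and 55.0% of calls higher. With the replicate block, 1322 probes, 0 members, 0 member probes and 8 listed genes were called. Leaving out 1 array gave 394 to 3979 probes, 0 to 1 members, 0 to 1 member probes and 5 to 18 listed genes. The 5 members called without scaling were Ctsb, Ctsd, Ctss, Ctsz and Npc2, and the 2 with spike-in scaling Ctss and Ctsz.

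Values that changed sign were those of uncalled members. Without scaling, the log2 difference was 0.34 for Ctsl, 0.37 for Lipa, 0.13 for Npc1 and 0.38 for Lamp1. With spike-in scaling it was 0.20 for Ctsl, 0.23 for Lipa and 0.24 for Lamp1, and after quantile normalization 0.25, 0.064 and 0.24. Lipa was 0.12 as the mean of its probes. Lamp1 was 0.0083 with median scaling, 0.019 with normexp and from -0.14 to 0.027 when 1 array was left out, 0.027 being without ATH3. The cause of these changes was not tested. The other 5 members were above 0 under every alternative run. The standard error of the median probe was 0.18, and the differences of Ctsb, Ctsl, Lipa and Lamp1 at their brightest probe were smaller than this.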
